A study of Mus musculus with 6 samples.

Results

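The genes described here are the 6 that encode the chains of collagen types I, III and V, namely Col1a1, Col1a2, Col3a1, Col5a1, Col5a2 and Col5a3. They were chosen by symbol, all 6 were found among the 43472 gene symbols counted, and all 6 passed the filter on low counts that left 16152 genes tested. RNA-seq was performed on whole intervertebral discs (IVDs) of the thoracic and lumbar spine from C57B6/J mice at postnatal day 20. The 3 mutant libraries came from Col2Cre; Adgrg6f/f mice, in which a Cre recombinase driven by Col2a1 regulatory sequence, active in cartilage and other disc cells, deletes loxP-flanked Adgrg6, which encodes an adhesion G protein-coupled receptor. The 3 control libraries are wild type in the genotype labels and Col2Cre controls in the sample titles, and the study describes them as littermates without Cre. Whether they carried floxed alleles, and the sex of the mice, are not given in the sources used here. Each library was a pool of discs from 2 to 3 mice, so spread between libraries is spread between pools.

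Collagens I, III and V form the banded fibrils of fibrous tissues such as tendon, bone and the outer annulus fibrosus. Type I is a heterotrimer of 2 Col1a1 chains and 1 Col1a2 chain, type III is a homotrimer of Col3a1 that co-assembles with type I in extensible tissue, and type V, made of Col5a1 with Col5a2 and in some tissues Col5a3, lies within type I fibrils, where it initiates them and limits their width. In the cartilaginous endplate and nucleus pulposus the corresponding fibril is made of type II collagen with type XI, and type XI chains are close relatives of type V chains.

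Each library held between 9061491 and 12017008 counts on genes. The lowest count behind any value for the 6 genes was 610, for Col5a3, with an exact Poisson 95% interval of 563 to 660 that covers counting error only. Gpr126, the older symbol of the deleted Adgrg6, had 124, 108 and 94.3 CPM (counts relative to library size, after edgeR's TMM scaling) in control discs and 138, 124 and 106 CPM in mutant discs, each in the order of replicates 1, 2 and 3. The groups overlapped, and counts over the whole gene do not measure loss of the floxed part. Cartilage and nucleus pulposus markers were present in every library, apart from the nucleus pulposus marker Noto, with 1 count over all 6 libraries. The summed level of 8 chondrocyte markers was 10546 to 12944 CPM in control and 8814 to 11235 CPM in mutant libraries. That of 8 nucleus pulposus markers was 2397 to 4960 and 3130 to 5823 CPM. Control replicate 1 stood apart in skeletal muscle genes, with 3982 CPM over 8 markers against 72.5 to 170 CPM in the other 5 libraries, and results without it are given below. In whole tissue, more cells of a type and more RNA per cell cannot be told apart.

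Col1a1 lies on the forward strand at chr11:94936224-94953042 of GRCm38 and Col1a2 on the forward strand at chr6:4504814-4541544. Col3a1, forward at chr1:45311538-45349706, and Col5a2, reverse at chr1:45374321-45503282, are neighbours whose 3′ ends face each other across 24614 bases with 0 annotated genes between them. Col5a1 is forward at chr2:27886425-28039514 and Col5a3 reverse at chr9:20770050-20815067. The main coding transcripts have 51 exons for Col1a1, 52 for Col1a2, 51 for Col3a1, 66 for Col5a1, 54 for Col5a2 and 67 for Col5a3. Of the annotated genes that overlap them, 2810430I11Rik and Gm13372 lie on the opposite strand of Col5a1, share 99 and 113 exon bases with it and carried counts equal to 7.94% and 7.37% of those on Col5a1. The strand setting of the counting is not given in the sources used here, so reads from Col5a1 and from these transcripts may not be fully told apart. Gm26274, within Col5a3, had 4 counts in all 6 libraries.

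Sequence upstream of the start was compared between the 2 chains for which the contrast was widest. The RefSeq promoter table used here (GRCm38.p6) matched 4 of the 6 genes, and Col1a1 and Col5a2 were not analysed for this. The 250 bases before the annotated start are 35.2% G and C for Col3a1 and 76.4% for Col5a1, and are shown with capitals that mark matches, on either strand, to CCAAT (the core of the CCAAT box), to TATAA (the core of the TATA box) and to GGGCGG (the core of the GC box).
Col3a1, chr1:45311288-45311537, forward strand: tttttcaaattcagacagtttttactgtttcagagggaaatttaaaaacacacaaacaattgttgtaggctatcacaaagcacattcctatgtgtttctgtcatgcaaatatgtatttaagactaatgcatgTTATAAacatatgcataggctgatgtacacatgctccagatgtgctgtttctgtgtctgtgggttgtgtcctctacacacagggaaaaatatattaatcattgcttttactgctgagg
Col5a1, chr2:27886175-27886424, forward strand: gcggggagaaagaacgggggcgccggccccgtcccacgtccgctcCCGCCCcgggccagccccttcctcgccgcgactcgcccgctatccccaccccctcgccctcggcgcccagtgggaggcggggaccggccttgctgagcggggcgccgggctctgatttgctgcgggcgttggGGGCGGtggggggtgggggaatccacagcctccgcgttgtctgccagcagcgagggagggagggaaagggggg
The Col3a1 window holds TATAA on both strands in overlapping positions and no other of the 3 motifs, and the Col5a1 window holds GGGCGG only, once on each strand. CCAAT was found in the windows of Col1a2 and Col5a3. Of 32851 RefSeq promoter windows of the same length, 33.8% hold CCAAT, 22.8% TATAA and 32.7% GGGCGG, so none of these matches is rare.

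The 6 transcripts were also searched for the seed match of the miR-29 family, microRNAs known to repress fibrillar collagen messages. The 3 mature mouse forms share 1 seed (bases 2 to 8), shown in capitals.
mmu-miR-29a-3p: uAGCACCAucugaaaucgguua
mmu-miR-29b-3p: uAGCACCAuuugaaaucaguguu
mmu-miR-29c-3p: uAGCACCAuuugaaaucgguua
Their match, TGGTGCT, occurs in the 3′ untranslated region of 5 of the 6 genes: 1 time each in Col1a1, Col3a1 and Col5a2, 4 times in Col5a1, 3 times in Col5a3 and 0 times in Col1a2. Of 7193 genes with 3′ untranslated regions of 785 to 2498 bases, the range spanned by the 6, 13.4% hold a match and 1.47% hold 2 or more. The match is not particular to types I, III and V, since Col2a1, Col24a1 and Col27a1 hold it 1 time each and Col11a1 2 times. The match of the type III gene and the first match of Col5a1 are shown in their context, with the match in capitals.
Col3a1, chr1:45348969-45348991, forward strand: caaaatgtctcaaTGGTGCTata
Col5a1, chr2:28037991-28038013, forward strand: aactatgaacattTGGTGCTgaa
A match is a description of sequence only. Poly(A) libraries do not measure mature microRNAs, and their level in these discs was not analysed here.

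The messages of all 6 chains were higher on average in mutant discs, with fitted fold changes from 1.38 for Col5a3 to 2.12 for Col3a1. In edgeR's quasi-likelihood test 5 of the 6 were higher at an unadjusted p under 0.05, against 2.89% of all 16152 genes tested in that direction and 7.21% in either. After Benjamini-Hochberg adjustment over all genes tested, 0 of the 6 passed 0.05 in edgeR, where 0.00619% of genes, or 1 gene, did. In 4 of the 6 every mutant library was above every control library, as it was for 5.45% of all genes tested. The median log2 fold change was 0.87 over the 6 genes and -0.01 over all genes tested.

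Col1a1 was among the most abundant messages of the disc, ranking between 3rd and 16th by counts in every library. It reached 12861 CPM in control replicate 1, 7926 in control replicate 2 and 3879 in control replicate 3, and 11537, 19450 and 20231 CPM in mutant replicates 1, 2 and 3. Control libraries thus spread widely among themselves, and the lowest mutant library lay below the highest control library. Means were 8222 ± 4498 CPM in control and 17073 ± 4810 CPM in mutant discs (SD, n = 3 each). The log2 fold change was 1.05 with a standard error (SE) of 0.46, at an unadjusted p of 0.0429 and an adjusted p of 0.691 in edgeR. Leaving out control replicate 1, which was high in muscle genes and in Col1a1, gave a log2 fold change of 1.55 at an unadjusted p of 0.00614 in edgeR. Leaving out control replicate 2 or 3 or mutant replicate 2 or 3 lost the call, with unadjusted p from 0.0802 to 0.111 in edgeR. The log2 fold changes in these fits were 1.03, 0.73, 0.96 and 0.92 in the same order.

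Col1a2, the partner chain, followed the same order of control libraries at 9081, 6365 and 3857 CPM, against 7624, 16184 and 11322 CPM in mutant replicates 1, 2 and 3. Here too mutant replicate 1 lay within the control range. Means were 6435 ± 2613 CPM in control and 11710 ± 4293 CPM in mutant discs (SD, n = 3 each), a log2 fold change of 0.86 (SE 0.41) that missed the threshold at an unadjusted p of 0.0590 in edgeR. It passed at an unadjusted p of 0.0164 without control replicate 1 and 0.0198 without mutant replicate 1 in edgeR. Without mutant replicate 2 the log2 fold change fell to 0.57 at an unadjusted p of 0.199, and without control replicate 2, control replicate 3 or mutant replicate 3 the unadjusted p in edgeR ran from 0.0936 to 0.165.

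Col3a1 had the largest log2 fold change of the 6 genes in this fit, and its control libraries lay close together. CPM were 2043, 1954 and 1568 in control and 2753, 4389 and 4633 in mutant replicates 1, 2 and 3. The groups did not overlap, with the lowest mutant library 1.35 times the highest control library. Means were 1855 ± 252 and 3925 ± 1022 CPM (SD, n = 3 each), a log2 fold change of 1.08 (SE 0.28) at an unadjusted p of 0.00335 and an adjusted p of 0.627 in edgeR. With any 1 library left out it stayed between 0.95 and 1.32, at unadjusted p of 0.0159 or lower in edgeR.

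Col5a1, the chain found in nearly all type V molecules, had 751, 880 and 541 CPM in control and 1168, 1195 and 1431 CPM in mutant replicates 1, 2 and 3. All mutant libraries were above all control libraries, by 1.33 times at the closest. Its log2 fold change was 0.80 (SE 0.24) at an unadjusted p of 0.00759 and an adjusted p of 0.676 in edgeR. The antisense transcripts that overlap it, Gm13372 and 2810430I11Rik, had log2 fold changes of 0.83 and 1.09 at unadjusted p of 0.00908 and 0.0449 in edgeR, and their part in the Col5a1 value was not tested.

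Col5a2, the second chain of the common type V molecule, had 532, 606 and 407 CPM in control and 750, 1142 and 933 CPM in mutant replicates 1, 2 and 3. These groups did not overlap either, with a gap of 1.24 times. The log2 fold change was 0.87 (SE 0.24) at an unadjusted p of 0.00486 and an adjusted p of 0.665 in edgeR. With any 1 library left out, Col5a1 stayed between 0.64 and 0.96 and Col5a2 between 0.72 and 1.05 on the log2 scale, both at an unadjusted p under 0.05 in edgeR each time.

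Col5a3, a type V chain of restricted distribution, was the least abundant of the 6 genes and the one with the smallest fitted change. CPM were 74.3, 67.7 and 71.8 in control and 92.0, 75.6 and 128 in mutant replicates 1, 2 and 3. The groups were set apart by only 1.02 times, between control replicate 1 and mutant replicate 2, and overlapped when CPM were scaled by library totals alone (mutant replicate 2 at 77.1 and control replicate 3 at 81.9 CPM). The log2 fold change of 0.46 (SE 0.21) had an unadjusted p of 0.0484 and an adjusted p of 0.691 in edgeR. Without mutant replicate 3 it was 0.24 at an unadjusted p of 0.245, and leaving out any 1 control library also took the unadjusted p in edgeR above 0.05. The log2 fold change was then 0.52, 0.42 and 0.48 without control replicates 1, 2 and 3.

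**Figure D1:**
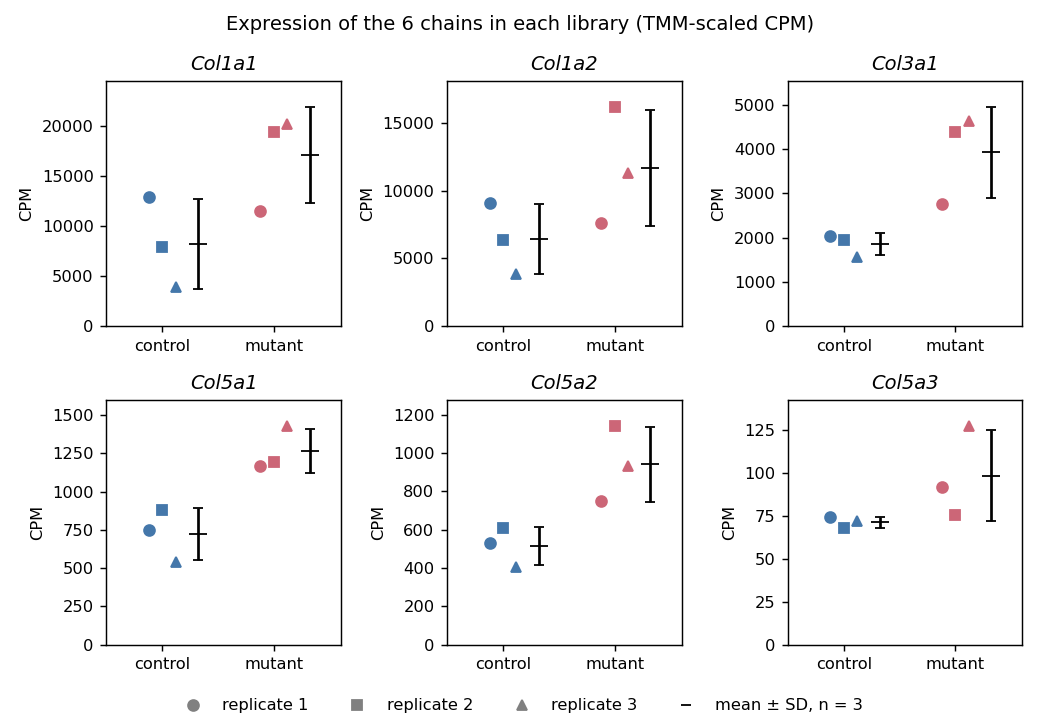
TMM-scaled CPM of each chain (vertical axes, linear from 0) in the 3 control and 3 mutant libraries, with the replicate number shown by the marker and the mean ± SD beside each group. Control and mutant points overlap for Col1a1 and Col1a2 and do not for Col3a1, Col5a1, Col5a2 and, by 1.02 times, Col5a3.

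The number of calls depended on the test. DESeq2 called all 6 genes at an unadjusted p under 0.05, against 6.07% of the genes it tested, and limma-voom with sample quality weights also called all 6, against 9.14%. At an adjusted p under 0.05 DESeq2 called 3 of the 6, against 0.197% of genes, while limma-voom called 0. These 3 were Col3a1, Col5a2 and Col5a1, at adjusted p of 0.000784, 0.0150 and 0.0262 in DESeq2. Their highest adjusted p, 0.999 for each, came from edgeR without control replicate 3, a fit in which 0% of all genes tested passed. In 72 of 72 alternative estimates, over all 6 genes, the value was higher in mutant discs. These estimates reuse the same libraries and are not independent of each other or of the main fit.

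Of the 5 other fibrillar collagen chains, 0 were at an unadjusted p under 0.05 in edgeR, a count near the share of all genes tested (7.21%). At an adjusted p under 0.05 it was also 0, against 0.00619% of all genes. The median log2 fold change of these 5 chains was -0.24. Col2a1, the main collagen of cartilage, was at 94670 ± 27722 CPM in control and 113942 ± 13580 CPM in mutant discs (SD, n = 3 each), with a log2 fold change of 0.27 (SE 0.46). In control replicates 1, 2 and 3 Col2a1 had 109121, 112181 and 62708 CPM. Control replicate 3 was thus the lowest control library for Col2a1, as for Col11a1, Col11a2, Col1a1, Col1a2, Col3a1, Col5a1 and Col5a2. Its low level was therefore not particular to types I, III and V. The type XI chains Col11a1 and Col11a2 had log2 fold changes of -0.24 (SE 0.28) and -0.27 (SE 0.33). The minor fibrillar chains Col24a1 and Col27a1 were at -0.20 (SE 0.24) and -0.41 (SE 0.26).

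**Figure D2:**
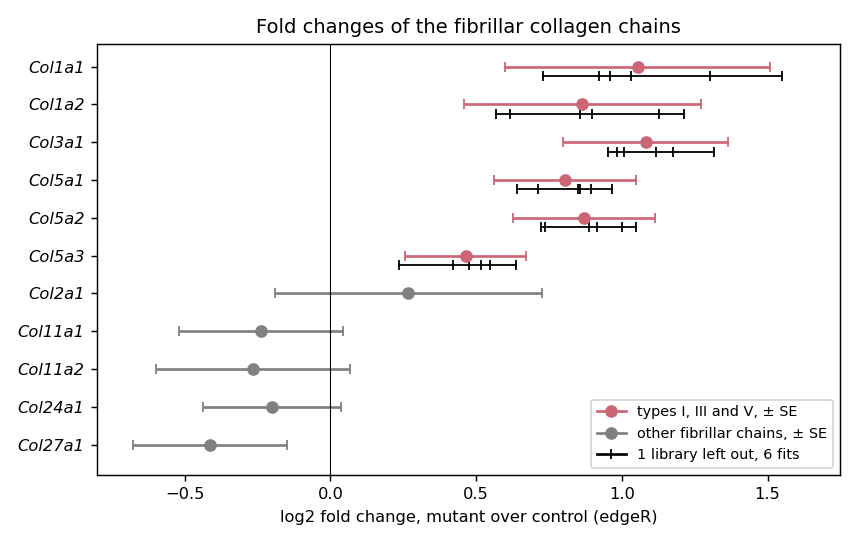
Log2 fold change of mutant over control from edgeR (horizontal axis) for the 6 chains of types I, III and V (red) and the 5 other fibrillar chains (grey), with bars of 1 SE, and in black the 6 values obtained with 1 library left out. All 6 red points lie to the right of 0, from 0.46 to 1.08, and 4 of the 5 grey points lie to the left.

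To compare levels between genes, CPM were divided by the length of the main coding mRNA in kb. On this scale mean levels in control discs were 1387 for Col1a1, 1203 for Col1a2, 333 for Col3a1, 86.1 for Col5a1, 77.7 for Col5a2 and 11.6 CPM per kb for Col5a3, and in mutant discs 2879, 2190, 705, 150, 142 and 16.1 CPM per kb in the same order. The order of the means was the same in both groups. Neighbours in this order that did not differ beyond their spread were Col1a1 with Col1a2 and Col5a1 with Col5a2, whereas the steps from type I to type III, to the major type V chains and to Col5a3 exceeded it. Of the 6-chain total per kb, Col3a1 made up 11.8 ± 3.71% in control and 11.7 ± 0.940% in mutant discs (SD, n = 3 each), and Col1a1 43.0 ± 6.34% and 47.4 ± 3.40%. All 6 chains together took 2.49%, 1.77% and 1.18% of gene counts in control and 2.13%, 4.33% and 3.75% in mutant replicates 1, 2 and 3, so mutant replicate 1 was within the control range on this measure.

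Ratios between chains were taken within each library from raw counts, which needs no scaling between libraries, and 7 ratios were compared between groups with a two-sided exact permutation test over all 20 assignments, in which 0.1 is the smallest p that 3 against 3 libraries can give. The count ratio of Col1a1 to Col1a2 was 1.42, 1.25 and 1.01 in control and 1.51, 1.20 and 1.79 in mutant replicates 1, 2 and 3. The groups overlapped, with a mean log2 ratio of 0.28 ± 0.25 in control and 0.57 ± 0.29 in mutant discs (SD, n = 3 each; exact permutation p = 0.3, adjusted 0.525 over 7 ratios). Per kb of main coding mRNA this ratio ran from 0.907 to 1.61 over the 6 libraries, and per kb of all annotated exons from 1.90 to 3.38, so its absolute size depends on the gene model while the difference between groups does not.

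Type III to type I, taken as Col3a1 over Col1a1 plus Col1a2, was 0.0931, 0.137 and 0.203 in control and 0.144, 0.123 and 0.147 in mutant replicates 1, 2 and 3. All 3 mutant values fell inside the control range, and the mean log2 ratios were -2.87 ± 0.56 and -2.86 ± 0.14 (SD, n = 3 each; exact permutation p = 1, adjusted 1). Without control replicate 1, whose ratio was the lowest, the log2 difference was -0.28 (exact permutation p = 0.4). Without control replicate 3, whose ratio was the highest, it was 0.29 (exact permutation p = 0.3).

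Type V to type I, with all 3 type V chains summed, was 0.0619, 0.109 and 0.132 in control and 0.105, 0.0677 and 0.0790 in mutant replicates 1, 2 and 3. The groups overlapped fully, and the log2 difference of -0.22 had an exact permutation p of 0.7 (n = 3 each, adjusted 0.98). The difference was -0.54 without control replicate 1 and 0.0081 without control replicate 3. In control discs both this ratio and the III to I ratio were lowest in replicate 1 and highest in replicate 3, the reverse of the order of Col1a1 and Col1a2. Type V to type III differed by -0.22 on the log2 scale (exact permutation p = 0.3, n = 3 each, adjusted 0.525).

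Within type V, Col5a1 to Col5a2 was 1.41, 1.45 and 1.33 in control and 1.56, 1.05 and 1.53 in mutant replicates 1, 2 and 3. Mutant replicate 2 was the low value, and without it the log2 difference changed from -0.04 (exact permutation p = 1, n = 3 each) to 0.15 (exact permutation p = 0.1, the smallest that 3 against 2 libraries can give). Col5a3 to Col5a1 was 0.0989, 0.0770 and 0.133 in control and 0.0787, 0.0632 and 0.0892 in mutant replicates 1, 2 and 3, groups that overlapped with a log2 difference of -0.40 (exact permutation p = 0.3, n = 3 each, adjusted 0.525).

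The ratio that set the groups apart was that of Col5a1 plus Col5a2 to Col11a1 plus Col11a2, the major type V chains against 2 type XI chains. The chains above and below are not matched as counterparts. It was 0.0867, 0.108 and 0.104 in control and 0.154, 0.274 and 0.227 in mutant replicates 1, 2 and 3, with no overlap. The mean was 2.14-fold higher in mutant discs (log2 difference 1.10, from -3.33 ± 0.17 to -2.24 ± 0.43, SD, n = 3 each). Its exact permutation p of 0.1 is the smallest this design allows, and 0.525 after adjustment over the 7 ratios, so no ratio passed the threshold. With any 1 library left out the log2 difference ran from 0.91 to 1.33. This ratio compares messages that different disc cells may supply, and shares of cells cannot be told apart from levels per cell in it.

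**Figure D3:**
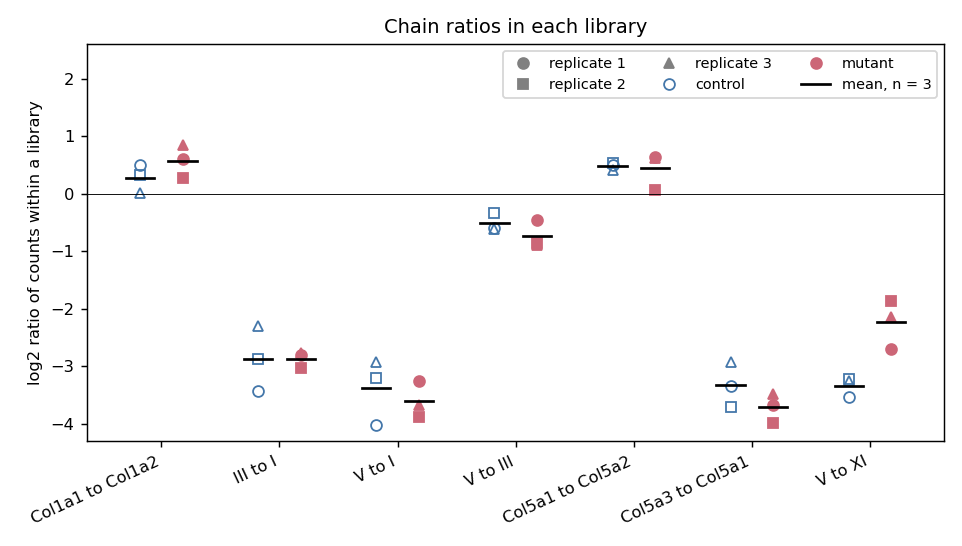
Log2 ratios of raw counts within each library (vertical axis) for the 7 chain ratios, with control libraries as open blue and mutant libraries as filled red markers, the replicate number by marker shape and the group mean as a black line (n = 3). Groups overlap in every ratio but V to XI, where control libraries lie from -3.53 to -3.21 and mutant libraries from -2.70 to -1.87.

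The chains differed in how their levels varied across libraries. Likeness was measured as the root mean square difference, over 6 libraries, between log2 CPM profiles each centred on its own mean, among tested genes with a mean of at least 10 CPM. Profiles were not scaled to equal spread, so distances and ranks depend on the size of variation as well as on its pattern. Centred values ran from -1.51 to 0.88 for Col1a1 but only from -0.29 to 0.63 for Col5a3. Col1a2 was the gene nearest to Col1a1 of 9962 compared, at 0.26, and Col1a1 ranked 8th for Col1a2. Col5a2 ranked 3rd for Col3a1 at 0.18, and Col3a1 ranked 9th for its chromosomal neighbour Col5a2. For Col5a3 the nearest of the other chains was Col5a1 at 0.33, ranked 3471st, while Col5a3 itself ranked 599th for Col5a1 and 426th for Col3a1. Col5a1 was farther from the type I chains than from Col5a3, at 0.47 from Col1a1, ranked 3777th, and 0.40 from Col1a2, ranked 1873rd.

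Among 9957 genes outside the family, those nearest to Col1a1 were Tnc at 0.30, Thbs4 at 0.32 and Fosl2 at 0.35. Those nearest to Col1a2 were Thbs2, Tmem119 and Dkk3 at 0.17 to 0.24, and those nearest to Col3a1 were the fibril-associated collagen Col14a1 at 0.11, Uts2r at 0.17 and Thbs2 at 0.21. For Col5a1 they were Helz2, Col15a1 and Inafm2 at 0.07 to 0.09, for Col5a2 Serpinf1, Sptb and Ackr3 at 0.10 to 0.15, and for Col5a3 Prss23, Tuba1b and Snrk at 0.04 to 0.10. The 6 libraries that define these profiles include both groups, so any gene with a like difference between groups scores as near.

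Collagen chains need many partners to become fibrils, and these are given for 5 lists in order of their action. Of all genes tested 2.89% were higher and 7.21% called in either direction at an unadjusted p under 0.05. With 1 library left out these shares were 5.25% and 14.1% (control replicate 1), 2.19% and 5.59% (control replicate 2), 1.76% and 3.77% (control replicate 3), 2.24% and 4.76% (mutant replicate 1), 4.73% and 9.76% (mutant replicate 2), and 2.06% and 5.10% (mutant replicate 3). With library totals they were 1.44% and 7.57%. Counts below that were made with a library left out or with library totals are to be read against these shares. Of 19 genes of procollagen folding and modification, 1 was higher and 0 were lower at an unadjusted p under 0.05 in edgeR, a share near that background, with a median log2 fold change of 0.07 that was -0.05 when libraries were scaled by their totals alone, a scaling that moved the median of all genes to -0.13. The count was 2 without control replicate 1 (median 0.18) or mutant replicate 2, and the median was -0.03 without control replicate 3. The gene called with all libraries was Creb3l1, an endoplasmic reticulum transcription factor that activates Col1a1 transcription in osteoblasts, at 49.1, 47.3 and 30.3 CPM in control and 83.2, 61.9 and 79.4 CPM in mutant replicates 1, 2 and 3, without overlap (log2 fold change 0.83, SE 0.22, unadjusted p 0.00331).

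Of 13 genes of propeptide removal and cross-linking, 5 were higher and 2 lower at an unadjusted p under 0.05 in edgeR. The median was 0.09 on the log2 scale. With library totals 3 were higher and 2 lower, and the median was -0.0044. The counts with TMM scaling also moved with single libraries. They were 6 higher and 1 lower without control replicate 1, 5 and 1 without mutant replicate 1 and 3 and 0 without control replicate 2. They were 2 and 2 without control replicate 3, 2 and 0 without mutant replicate 2 and 3 and 1 without mutant replicate 3. Medians in these fits ran from -0.09 to 0.38. Those higher were Adamts2, the procollagen N-proteinase (log2 fold change 0.59), Pcolce, an enhancer of C-propeptide cleavage (0.80), and the lysyl oxidases Lox (0.75), Loxl1 (0.99) and Loxl2 (0.60). Those lower were Adamts14, a second N-proteinase (-0.54), and Pcolce2 (-0.46). Pcolce had 315, 280 and 263 CPM in control and 431, 457 and 606 CPM in mutant replicates 1, 2 and 3, without overlap. Its relative Pcolce2 was at 455, 510 and 411 CPM in control and 312, 347 and 342 CPM in mutant replicates 1, 2 and 3, without overlap in the other direction.

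Of 18 genes of fibril assembly and the fibril surface, 7 were higher and 0 lower at an unadjusted p under 0.05 in edgeR, and 16 of 18 fold changes were above 0, as were 48.4% of all genes tested. The median log2 fold change was 0.46. The 7 were Postn, a matricellular protein that binds type I collagen (log2 fold change 1.17), Col14a1 (1.16), the small leucine-rich proteoglycans Aspn (0.92) and Ogn (0.59), Thbs2 (0.84), tenascin-X gene Tnxb (0.65) and Dpt (0.51). Postn had 93.3, 45.5 and 51.5 CPM in control and 143, 150 and 135 CPM in mutant replicates 1, 2 and 3. Col14a1, nearest to Col3a1 in profile, had 79.2, 60.4 and 53.5 CPM in control and 103, 153 and 175 CPM in mutant replicates 1, 2 and 3. Both were without overlap.

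Of 13 genes of collagen breakdown and collagen receptors, 12 were tested and 0 were at an unadjusted p under 0.05 in edgeR. The median log2 fold change was 0.05 (-0.07 with library totals), and the collagen endocytosis receptor Mrc2 and the chondrocyte integrin Itga10, the 2 with the most counts, were at 0.11 (SE 0.19) and -0.14 (SE 0.20). Of 20 regulators of collagen transcription and message, Ski, a repressor of SMAD signalling, was higher (log2 fold change 0.83), and Tgfb2 (-0.51) and the osteoblast factor Runx2 (-0.55) were lower, at unadjusted p of 0.00685, 0.0227 and 0.0282 in edgeR. The 1 higher and 2 lower calls of this list became 4 and 0 without control replicate 1, 2 and 2 without control replicate 2, 1 and 1 without control replicate 3 or mutant replicate 1, 3 and 2 without mutant replicate 2, 1 and 0 without mutant replicate 3, and 1 and 4 with library totals. The tendon transcription factor Scx and the tendon factor Mkx did not pass, at 0.47 (SE 0.33) and -0.01 (SE 0.25). At an adjusted p under 0.05 in edgeR, 0 genes of these 5 lists passed. In the breakdown and receptor list 1 gene was higher without control replicate 1 or 2 or mutant replicate 1 or 2.

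Markers of other cell types that could supply these collagens were examined in the same fit, in which 2.89% of all genes were higher and 7.21% called in either direction at an unadjusted p under 0.05. Counts with a library left out are again to be read against the shares of all genes in those fits, which ran from 1.76% to 5.25% higher. The summed level of 5 tendon and outer annulus markers was 158 to 241 CPM in control and 282 to 379 CPM in mutant libraries, without overlap, as were 5.45% of single genes in that direction. Of these 5, 2 were higher at an unadjusted p under 0.05 in edgeR, namely Tnmd (log2 fold change 0.96) and Thbs4 (1.09). Thbs4, at means of 83.0 and 176 CPM, supplied most of the difference between the sums, and Scx, Mkx and Kera overlapped between groups. Summed markers of loose connective tissue fibroblasts (1 of 7 higher, Dpt) were 220 to 235 and 236 to 363 CPM, and those of smooth muscle and pericytes (0 of 6 called) 351 to 445 and 482 to 716 CPM. These sums were also without overlap, that of loose connective tissue narrowly so (235.1 against 235.6 CPM). With 1 library left out, 2 of 6 smooth muscle markers were higher without control replicate 1 (5.25% of all genes) or mutant replicate 1 (2.24%). The count was 1 without mutant replicate 2 (4.73%). With all libraries it was 3 in limma-voom (4.54% of all genes), 3 with no filter (2.87%) and 2 in DESeq2 (1.99%). It was 0 with RLE size factors, library totals or the replicate block. Of the 7 loose connective tissue markers, 2 were higher without mutant replicate 1 or 2 and 0 without control replicate 1, control replicate 2 or mutant replicate 3. In all of these 3 lists no gene was at 0 in any library.

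Osteoblast and osteocyte markers summed to 775 to 1229 CPM in control and 882 to 1152 CPM in mutant libraries, which overlapped. Alpl and Ibsp, at means of 532 and 355 CPM in control discs, supplied most of this sum, so it says little about the other markers. Of 9 such markers 2 were higher in edgeR at an unadjusted p under 0.05 (Bglap, log2 fold change 1.64, and Bglap2, 1.31, near-identical genes whose counts are uncertain) and 1 lower (Phex, -0.81). The lower call was lost when mutant replicate 2, mutant replicate 3 or control replicate 3 was left out. It was also lost with the replicate block and in limma-voom, while 2 markers were lower with library totals. Without control replicate 1, 3 markers were higher. Of 8 chondrocyte markers 0 were higher and 2 lower (Matn3, -0.78, and Snorc, -0.57), with overlapping sums. Of the other lists, 0 of 7 nucleus pulposus and 0 of 5 endothelial markers tested were called, and 1 each was higher among 5 red cell (Slc4a1), 6 neutrophil (Mpo) and 6 macrophage (Cd68) markers. These counts also moved with single libraries: without control replicate 1, 4 of 5 endothelial markers (median log2 fold change 0.70, against 0.33 with it) and 4 of 5 red cell markers (2.16, against 1.02) were higher at an unadjusted p under 0.05 in edgeR, in a fit where 5.25% of all genes tested were. Of the 6 neutrophil markers, 4 were higher without control replicate 3 (median 1.69) or mutant replicate 3 (1.44), where 1.76% and 2.06% of all genes tested were. The medians also moved downward, for endothelial markers to 0.14 without control replicate 2, for red cell markers to 0.55 without control replicate 2 or mutant replicate 2, and for neutrophil markers to 0.22, with 1 of 6 higher, without mutant replicate 1. Median log2 fold changes ran from 0.09 without mutant replicate 1 to 0.58 without control replicate 3 for macrophage, from -0.20 without mutant replicate 3 to 0.53 without control replicate 3 for nucleus pulposus and from -0.25 without control replicate 2 or 3 to 0.58 without control replicate 1 for osteoblast and osteocyte markers. With 1 library left out, 0 to 1 chondrocyte markers were lower (0 without mutant replicate 3), 0 to 1 nucleus pulposus markers were higher (1 without control replicate 3 or mutant replicate 2) and 0 to 2 macrophage markers were higher (2 without mutant replicate 2, 0 without control replicate 2 or 3 or mutant replicate 1). Skeletal muscle markers were lower in 7 of 8 at an unadjusted p under 0.05 in edgeR, and 0 of 8 were lower, with 4 higher, once control replicate 1 was left out. The part of any of these cell types in the collagen values was not tested. Scx, Mkx, Kera, Dpt and Sp7 each stand in more than 1 of the lists, and several fibroblast markers are made by the same cells as the collagens.

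**Figure D4:**
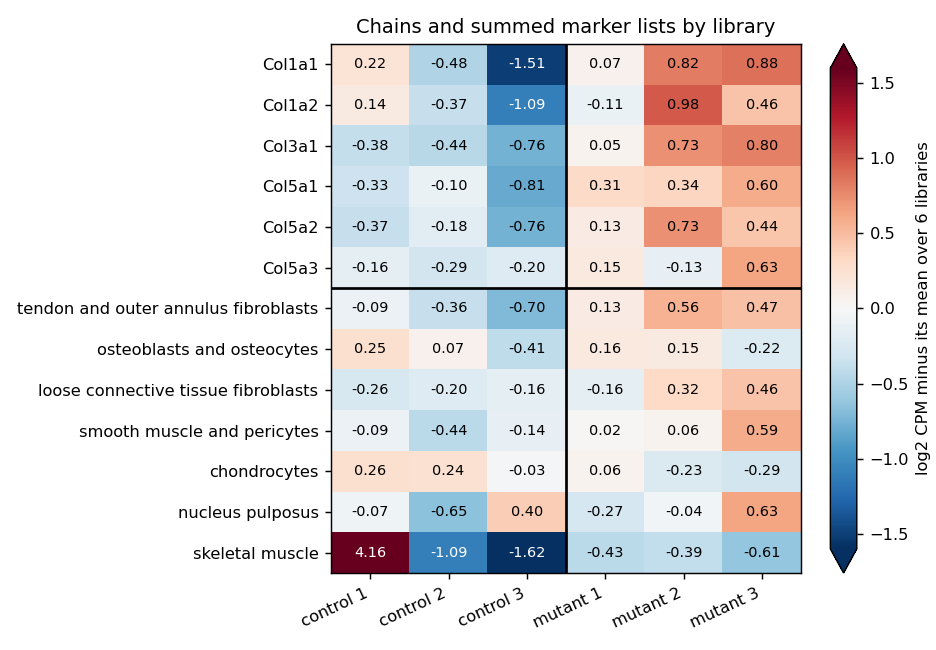
Log2 CPM minus its mean over the 6 libraries (colour and printed value, colours saturated beyond 1.6 in size) for the 6 chains (upper rows) and for the summed levels of 7 marker lists (lower rows), with libraries in columns. Control replicate 3 is lowest for 5 of the 6 chains. It is also lowest for the tendon and outer annulus (-0.70), osteoblast and osteocyte (-0.41) and skeletal muscle (-1.62) lists. Control replicate 1 is at 4.16 for skeletal muscle.

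Without control replicate 1, the library high in muscle genes, the count of the 6 chains at an unadjusted p under 0.05 in edgeR was again 5, with Col1a2 gained and Col5a3 lost. In that fit 5.25% of all genes tested were higher at the same threshold and 14.1% were called in either direction, more than with all libraries. All 6 chains were then without overlap, as were 13.8% of genes, but separation is easier between 2 and 3 libraries than between 3 and 3, so this count is not comparable with the 4 given above. The median log2 fold change of the 6 was then 1.05. Leaving out control replicate 2, control replicate 3 or mutant replicate 3 brought the count to 3 each time, namely Col3a1, Col5a1 and Col5a2, while 2.19%, 1.76% and 2.06% of all genes tested were higher in these fits.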

How the data were processed

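RNA-seq of poly(A) RNA was deposited for 3 mutant and 3 control pools of IVDs at postnatal day 20. The authors deposited raw counts per gene symbol for each library, which were used here without change. The study's methods name Cutadapt, FastQC and HISAT2 on GRCm38.88, whereas the submitters' processing notes name STAR 2.5.3a, HTSeq and DESeq2 with mm10 and GRCm38. The closing lines of the count files, which are not genes, were left out, and 40.4% to 44.2% of the reads entering the count were on genes. A deposited table of the authors' own comparison, with fold changes, p-values and 6 columns of normalized values, was not used.

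Counts were compared in R 4.3.3 with edgeR 4.0.16 (TMM, filterByExpr with a count minimum of 10, quasi-likelihood test, Benjamini-Hochberg adjustment over 16152 genes). The SE is the size of a log2 fold change over the root of its F statistic. Nothing in the labels states more than that each pool held 2 to 3 mice, so p-values measure the spread between these pools. Alternatives were median-of-ratios (RLE) size factors, library totals only, no filter, a block for the replicate number, DESeq2 1.42.0, limma-voom (limma 3.58.1) with quality weights, and leaving out each library. Ratios were taken on raw counts, and their alternatives were counts per kb of all annotated exons and of the main coding mRNA, the latter chosen after seeing the data, mean log2 counts of the chains in place of summed counts, libraries paired by replicate number, and leaving out each library.

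Gene models and positions were taken from GENCODE M21 (GRCm38), and promoter and microRNA sequences those of RefSeq on GRCm38.p6. Named genes are the 6 chains, in each list those at an unadjusted p under 0.05 or otherwise the 2 with the most counts, the 3 genes nearest to each chain in profile, the deleted gene and overlapping genes. Scx and Mkx were named after their values were seen. The 6 chains, the lists and the tests were chosen with earlier results of these data known.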

Additional observations from a re-analysis of the deposited data

How the results depend on the processing

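The fold changes of the 6 chains were above 0 in 72 of 72 alternative estimates, which reuse the same libraries and are not independent. Scaling by library totals alone moved the median log2 fold change of all genes to -0.13, against -0.01 with TMM, and that of the 6 chains to 0.79. Col1a2 passed an unadjusted p of 0.05 with no filter (log2 fold change 0.88), with DESeq2 (0.88) and with limma-voom (0.83), and Col5a3 lost it with library totals (0.34) and with the replicate block (0.43). The count of chains at an adjusted p under 0.05 was 3 with DESeq2 and 0 in edgeR. The III to I log2 ratio turned to -0.038 per kb of all annotated exons. With 1 library left out, log2 fold changes ranged from 0.73 to 1.55 for Col1a1, 0.57 to 1.21 for Col1a2, 0.95 to 1.32 for Col3a1, 0.64 to 0.96 for Col5a1, 0.72 to 1.05 for Col5a2 and 0.24 to 0.64 for Col5a3. The count of chains at an unadjusted p under 0.05 ranged from 3 to 6, at an adjusted p from 0 to 0, and without overlap from 4 to 6, while 3.77% to 14.1%, 0% to 0.181% and, in the direction of the chains, 8.35% to 13.9% of all genes met the same criteria. The counts without overlap here compare 2 with 3 libraries and are not like that of 3 with 3. Log2 ratio differences ranged from 0.16 to 0.44 for Col1a1 to Col1a2, -0.28 to 0.29 for III to I, -0.54 to 0.0081 for V to I, -0.37 to -0.13 for V to III, -0.14 to 0.15 for Col5a1 to Col5a2, -0.59 to -0.19 for Col5a3 to Col5a1 and 0.91 to 1.33 for V to XI. The III to I difference turned to -0.28, -0.03 and -0.04 without control replicate 1, mutant replicate 1 and mutant replicate 3, V to I to 0.0081 without control replicate 3, and Col5a1 to Col5a2 to 0.15 without mutant replicate 2. The cause of these shifts was not tested.

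Replicate numbers did not pair the libraries: deviations from group means correlated at 0.10, -0.21 and 0.09 between same-numbered libraries. With the replicate block, 4 of the 6 chains were at an unadjusted p under 0.05 in edgeR. Of all genes tested in that fit, 2.45% were higher and 6.2% were called in either direction at that threshold.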
